A study of Mus musculus with 2 samples.

Results

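The genes described here are 7 matrix metalloproteinase genes (Mmp9, Mmp14, Mmp12, Mmp13, Mmp2, Mmp19 and Mmp8) and 3 genes of the tissue inhibitors of metalloproteinases (Timp1, Timp2 and Timp3). They were taken by name, and all 10 had a value among the 14777 genes with a value in the series. The study sequenced RNA of bone marrow cells from wild-type mice, 1 library per condition. The cells of M were grown with M-CSF, and those of MR received RANKL, which induces osteoclasts, in addition. In the labels' protocol the cells received M-CSF for 2 days before RANKL was added, and M-CSF with RANKL for 2 days, whereas the study's methods give a longer time with RANKL. For M no culture time is listed, and the day of harvest is not named in the sources used here. Whether M and MR were cultured for the same time is therefore not known. No sort of the cells is named, and how many mice they came from is not given in the sources used here. There was no replicate in either group, so each difference below is a difference between these libraries and no p-value was computed.

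Matrix metalloproteinases are zinc-dependent enzymes that cut collagens, elastin and other proteins outside the cell. They are made as inactive precursors, in which a cysteine of the propeptide holds the catalytic zinc, and they are activated when the propeptide is removed. The TIMP proteins block the active enzymes by occupying the same zinc. In bone, osteoclasts dissolve the mineral with acid and degrade the collagen matrix with cathepsin K, while metalloproteinases such as Mmp9 and Mmp14 are known for their part in matrix removal and in the migration of osteoclast precursors.

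The strip of coding sequence that carries the catalytic zinc is shown because all 7 Mmp genes share it. Each sequence is from the GENCODE vM21 transcripts (GRCm38), reads 5′ to 3′ on the coding strand, and has the 3 histidine codons that bind the zinc in capitals.
Mmp9: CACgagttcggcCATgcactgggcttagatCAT
Mmp2: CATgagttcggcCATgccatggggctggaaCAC
Mmp14: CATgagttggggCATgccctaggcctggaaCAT
Mmp12: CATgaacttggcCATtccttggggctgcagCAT
Mmp13: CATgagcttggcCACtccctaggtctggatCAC
Mmp8: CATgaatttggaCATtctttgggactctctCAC
Mmp19: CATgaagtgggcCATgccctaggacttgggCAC
The stretch lies in exon 8 of Mmp9 at chr2:164951133-164951165 and in exon 8 of Mmp2 at chr8:92839279-92839311. It lies in exon 5 of the other 5 genes, at chr14:54437627-54437659 in Mmp14, chr9:7352914-7352946 in Mmp12, chr9:7276573-7276605 in Mmp13, chr9:7563086-7563118 in Mmp8 and chr10:128795673-128795705 in Mmp19, all on the plus strand. Of its 33 bases, 25 were the same as in Mmp9 in Mmp14 and in Mmp2, 22 in Mmp13, 21 in Mmp12 and in Mmp19, and 20 in Mmp8. The cysteine switch of the propeptide, searched by its usual consensus, was found in 6 of the 7 genes and not in Mmp19. Only exact matches were taken, so a variant of the switch in Mmp19 would have been missed.

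The inhibitors are shown by the stretch at which the mature proteins begin, whose first cysteine reaches into the active site of the enzyme. The codons of its 3 cysteines are in capitals.
Timp1: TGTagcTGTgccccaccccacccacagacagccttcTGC
Timp2: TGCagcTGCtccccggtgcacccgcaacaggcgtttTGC
Timp3: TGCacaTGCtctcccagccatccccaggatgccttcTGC
These 39 bases lie in exon 2 of Timp1 at chrX:20871111-20871149 on the plus strand, in exon 1 of Timp2 at chr11:118354974-118355012 on the minus strand, and in exon 1 of Timp3 at chr10:86300923-86300961 on the plus strand.

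On GRCm38 the genes span chr2:164940780-164955850 (Mmp9), chr14:54431612-54445364 (Mmp14), chr9:7344381-7369499 (Mmp12), chr9:7272514-7283331 (Mmp13), chr9:7558456-7568485 (Mmp8), chr8:92827291-92853420 (Mmp2), chr10:128790910-128800824 (Mmp19), chrX:20870166-20874735 (Timp1), chr11:118301069-118355740 (Timp2) and chr10:86300372-86349506 (Timp3).

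Values are TPM, the length- and depth-scaled level that the authors calculated with StringTie. Being per length, they can be compared between genes that were assembled as 1 locus. For a gene assembled in pieces the TPM of the pieces were summed, which can overstate its level. The aligned bases were taken as 3.63 Gb in M and 2.98 Gb in MR. Each is the value of coverage over FPKM shared by 44.0% of the loci examined in M and by 47.2% in MR. No counts are listed, so read pairs per gene were estimated from the FPKM, these aligned bases and a length. The length was the annotated exon bases of 1 transcript of the gene within the ends of the locus. The 95% intervals below come from these estimates and cover counting error only. Where a locus holds further exons of the gene or departs from that ratio, its read pairs and interval are less certain. A log2 ratio was taken after adding 1 to each TPM, and a gene was called higher or lower in MR when this ratio was above 1 or below -1. Over 13464 genes, those with an unshared locus that reached a TPM of 1 in either library, 21.2% were called higher and 13.3% lower, 34.5% in all, and the median log2 ratio was 0.21. The higher calls were 61.6% of all calls, and 53.0% under median-of-ratios scaling. The markers fixed for osteoclasts were all called higher in MR, 8 of 8, among them Ctsk with 53.1 TPM in M against 12867 in MR, and Oscar, Dcstamp and Ocstamp, for which no locus was assembled in M.

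Mmp9 and Mmp14 were much higher in MR, whereas Mmp13, Mmp12 and Mmp8 were lower. Of the 10 genes, 2 were called higher and 3 lower, beside the 21.2% and 13.3% of all genes, and the other 5 (Mmp19, Mmp2, Timp1, Timp2 and Timp3) lay between the thresholds. The median over the 10 genes was -0.27. Together the 7 Mmp genes had 180 TPM in M and 5932 in MR, of which Mmp9 made up 6.34% in M and 87.0% in MR. Without Mmp9 and Mmp14 the sum of the Mmp genes was 114 in M and 36.3 in MR. The 3 Timp genes summed to 161 in M and 143 in MR.

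**Figure D1:**
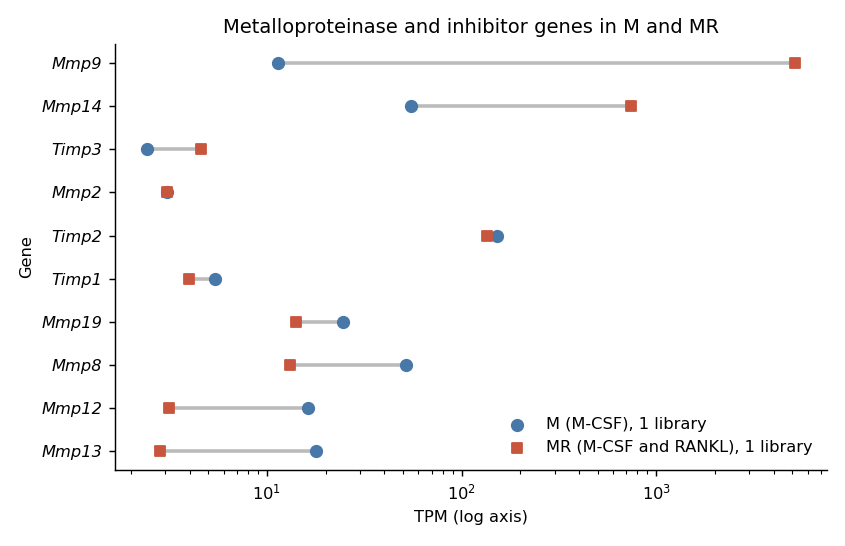
TPM of each gene in M (circles) and in MR (squares) on a log axis, 1 library each, ordered by log2 ratio. Mmp9 and Mmp14 lie far to the right in MR at 5159 and 737, while Mmp8, Mmp12 and Mmp13 lie to the left of their value in M.

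Mmp9, gelatinase B, digests denatured collagen and is abundant in osteoclasts. It stood at 11.4 TPM in M and at 5159 in MR, a ratio of 453 (95% counting interval 394 to 521) and a log2 ratio of 8.70. The estimate behind these values was 198 read pairs in M and 70736 in MR. By TPM Mmp9 stood at place 7319 of the 14777 genes in M and at place 9 in MR, where it held 0.516% of all TPM. Of the 8680 genes with an unshared locus that reached a TPM of 10 in either library, 1 had a higher log2 ratio. The 8 osteoclast markers together had 115 TPM in M and 19834 in MR, with 4 of them at 0 in M and none in MR, and their part in the values of Mmp9 and Mmp14 was not tested. In these bulk libraries, a different number of cells of a type and a different amount of RNA per cell cannot be told apart.

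Neutrophils also store Mmp9 in their granules. The 11 neutrophil markers together had 1402 TPM in M and 979 in MR, and none was at 0 in either library. Of these, 0 of 11 were called in either direction, beside 34.5% of all genes. Of the lymphoid markers, 3 of 5 B cell genes were called lower, beside 13.3% of all genes, with sums of 19.7 TPM in M and 9.81 in MR. Of the T cell genes, 4 of 5 were at 0 in both libraries, and Cd4 had 13.0 TPM in M and 9.82 in MR. The 3 genes nearest to Mmp9 in the plane of the log2(TPM + 1) values of both libraries were Acp5, at a distance of 2.10, Ctsk and Atp6v0d2, the last at 2.72. Acp5 encodes the tartrate-resistant acid phosphatase of osteoclasts, and reached 51.9 TPM in M against 4947 in MR. Atp6v0d2, a subunit of the proton pump of osteoclasts, had 4.25 in M and 965 in MR. Likeness over 2 libraries is a description only.

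Mmp14 encodes a membrane-bound metalloproteinase that cuts collagen at the cell surface and activates the precursor of Mmp2. It stood at 54.8 TPM in M and at 737 in MR, a ratio of 13.4 (12.5 to 14.5) and a log2 ratio of 3.72. It moved from place 2590 by TPM in M to place 218 in MR. The locus that covers all 10 exons of the transcript Mmp14-201 accounted for 721 of the TPM in MR. The other 16.1 came from 4 pieces of 57 to 63 bases, each with exactly the ends of a T cell receptor joining segment (Traj) as positioned by the annotation of the other genome build.

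**Figure D2:**
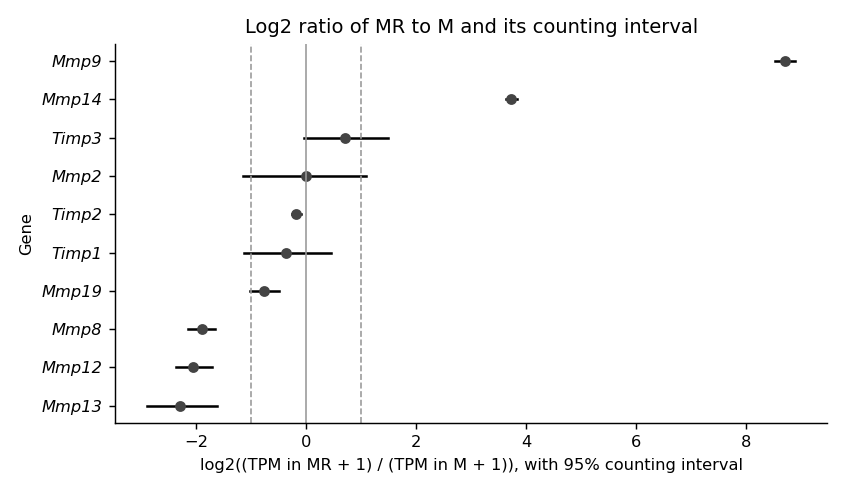
Log2 ratio of MR to M of each gene (points), computed with 1 added to each TPM, with its 95% counting interval (lines). Dashed lines mark -1 and 1. The intervals of Mmp9 and Mmp14 lie above 1, those of Mmp8, Mmp12 and Mmp13 below -1, and those of Mmp2, Timp1 and Timp3 include 0.

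Mmp13, Mmp12 and Mmp8 lie together in a cluster of metalloproteinase genes on chromosome 9. Mmp13, a collagenase best known from chondrocytes and osteoblasts, reached 17.9 TPM in M against 2.83 in MR, 6.30-fold lower in MR (3.48 to 11.4), with a log2 ratio of -2.30. In MR its transcript was not assembled whole. There the value is the sum of 2 pieces, which hold 9.17% and 52.9% of its 2673 bases and an estimated 11 read pairs in all, and with the longest piece alone the TPM was 1.46 and the log2 ratio -2.94.

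Mmp12, the macrophage elastase, reached 16.2 TPM in M against 3.16 in MR. This is 5.14-fold lower in MR (3.82 to 6.92), with a log2 ratio of -2.05. Its exons share 157 bases with Mmp1b on the other strand, for which no locus was assembled. Mmp8, a collagenase stored by neutrophils, reached 51.8 TPM in M against 13.1 in MR, 3.95-fold lower in MR (3.29 to 4.74) and a log2 ratio of -1.90. The neutrophil markers were lower by less, with log2 ratios from -0.84 for Camp to 0.26 for Elane and a median of -0.42, and their part in the value of Mmp8 was not tested. Among 8 macrophage markers, 4 were called lower and 0 higher, beside 13.3% and 21.2% of all genes. Those 4 were Fcgr1, an Fc receptor, with 1158 TPM in M against 60.5 in MR, Mertk with 108 and 15.8, Adgre1, which encodes F4/80, with 681 and 148, and Mrc1, the mannose receptor, with 47.9 and 11.8. Of the 4 not called, Cd68, the most abundant marker of the list, had 2607 and 2171, and Csf1r, the receptor of M-CSF, had 697 and 872, the only one of the 8 that was higher in MR. The list summed to 5525 in M and 3444 in MR, no marker was at 0, and its part in the lower values of Mmp12, Mmp13 and Mmp8 was not tested.

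The cluster holds 10 Mmp genes over 427.1 kb, from chr9:7272514 to chr9:7699585. Loci were assembled at 4 of them, Mmp13, Mmp12, Mmp8 and Mmp27, and all 4 were called lower in MR, beside the 13.3% of all genes. Mmp27, which was chosen for the wider family list and is the neighbour of Mmp8, had the highest TPM of the cluster in M, 73.4, and 6.94 in MR, with a log2 ratio of -3.23. No locus was assembled in either library at Mmp1b, Mmp3, Mmp1a, Mmp10, Mmp20 and Mmp7. Genes of 1 cluster are neighbours and not replicates of the condition.

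**Figure D3:**
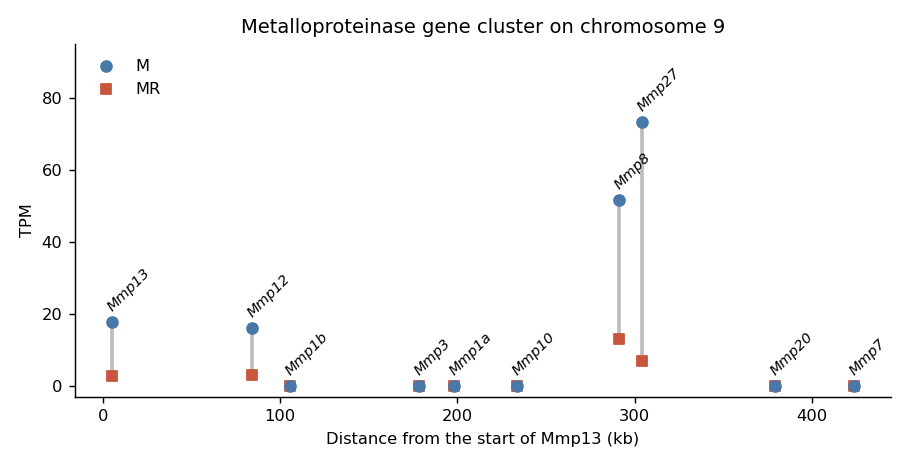
TPM in M (circles) and MR (squares) of the 10 Mmp genes of the chromosome 9 cluster against the distance of the gene's middle from the start of Mmp13 in kb. The 4 genes with a locus, at 2.83 to 13.1 in MR, are all lower than in M, and the other 6 are listed at 0 in both libraries.

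Promoters are shown for the member of the higher genes that had an entry and for the 3 members of the cluster, as genes called in the same direction. They are the 250 bases before the start given by RefSeq (GRCm38.p6), 5′ to 3′ on the plus strand, at chr14:54431348-54431597 for Mmp14, chr9:7272264-7272513 for Mmp13, chr9:7347124-7347373 for Mmp12 and chr9:7558179-7558428 for Mmp8. Capitals mark matches on either strand to AP-1 (TGANTCA), ETS (AGGAAG) and the TATA box (TATAAA), none of which overlapped.
Mmp14: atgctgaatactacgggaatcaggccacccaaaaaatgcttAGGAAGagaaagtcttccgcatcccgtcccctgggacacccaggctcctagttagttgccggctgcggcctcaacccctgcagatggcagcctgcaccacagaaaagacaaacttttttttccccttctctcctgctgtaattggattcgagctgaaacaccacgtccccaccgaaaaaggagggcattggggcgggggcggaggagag
Mmp13: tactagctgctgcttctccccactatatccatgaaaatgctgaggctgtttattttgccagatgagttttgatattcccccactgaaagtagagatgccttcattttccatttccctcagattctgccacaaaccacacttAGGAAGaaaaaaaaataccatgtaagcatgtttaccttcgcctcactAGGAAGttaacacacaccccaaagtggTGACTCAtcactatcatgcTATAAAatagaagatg
Mmp12: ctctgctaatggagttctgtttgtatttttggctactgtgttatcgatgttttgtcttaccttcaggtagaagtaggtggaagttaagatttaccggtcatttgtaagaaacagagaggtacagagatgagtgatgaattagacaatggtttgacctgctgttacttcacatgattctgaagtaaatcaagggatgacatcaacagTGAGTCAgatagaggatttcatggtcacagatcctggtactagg
Mmp8: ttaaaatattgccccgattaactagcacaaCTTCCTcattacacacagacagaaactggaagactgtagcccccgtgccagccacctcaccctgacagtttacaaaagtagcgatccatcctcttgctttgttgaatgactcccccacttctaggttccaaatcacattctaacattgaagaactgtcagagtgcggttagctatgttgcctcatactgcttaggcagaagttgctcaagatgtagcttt
AP-1 letters were found in Mmp13 and Mmp12, beginning at -35 and -44 from the start, while 6.75% of 32851 promoters hold them. Neither Mmp14 nor Mmp8 held them in this window. Mmp13 also held the TATA box letters, which 12.4% of promoters hold, and ETS letters at -109 and -62. The ETS letters stood at -209 in Mmp14 and at -220 in Mmp8, on the other strand in the latter, and 29.5% of promoters hold them. An NF-kappaB consensus, held by 1.41% of promoters, was in none of them. Promoters were found for 7 of the 10 genes. Of these 7, AP-1 letters were in 2 and ETS letters in 5, among them Timp1 and Timp3, which were not called. A match is a description of the letters and not of binding.

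Mmp19 reached 24.6 TPM in M against 14.1 in MR, with a log2 ratio of -0.76 and a counting interval from -1.02 to -0.50. It was lower in MR by more than the counting error, but not past the threshold. The main locus of Mmp19 held 74.4% of the transcript in both libraries. A second locus, which began upstream of the gene, added 0.475 TPM in M and 0.188 in MR. The exons of Mmp19 share 789 bases with those of Tmem198b on the other strand, which had 13.7 in M and 10.2 in MR. Whether the library kept the strand of reads is not given in the sources used here, so that the value of Mmp19 may hold reads of both genes.

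Mmp2, gelatinase A, which is typical of stromal cells, reached 3.05 TPM in M against 3.06 in MR. These are sums over 3 pieces in M and 2 in MR, with an estimated 5 and 8 read pairs, so that its log2 ratio of 0.00 has an interval from -1.14 to 1.08. With the longest piece alone in each library its log2 ratio was 0.82. A difference in Mmp2 in either direction was not detectable at this depth. The 9 stromal markers were also low, with sums of 22.3 in M and 41.2 in MR, of which Col3a1 at 14.1 in MR was the highest, and Lum was at 0 in both libraries. Of the 8 stromal markers that reached a TPM of 1, 4 were called higher (Col3a1, Pdgfra, Dcn and Lepr) and 1 lower (Cxcl12). The shares of all genes were 21.2% and 13.3%. Pdgfra, Dcn and Lepr had no locus in M and 1.04 to 2.48 TPM in MR, and Cxcl12 had 1.76 in M and no locus in MR. The median log2 ratio of the 8 was 0.83, and their part in the values of Mmp2 and of the matrix genes was not tested.

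**Figure D4:**
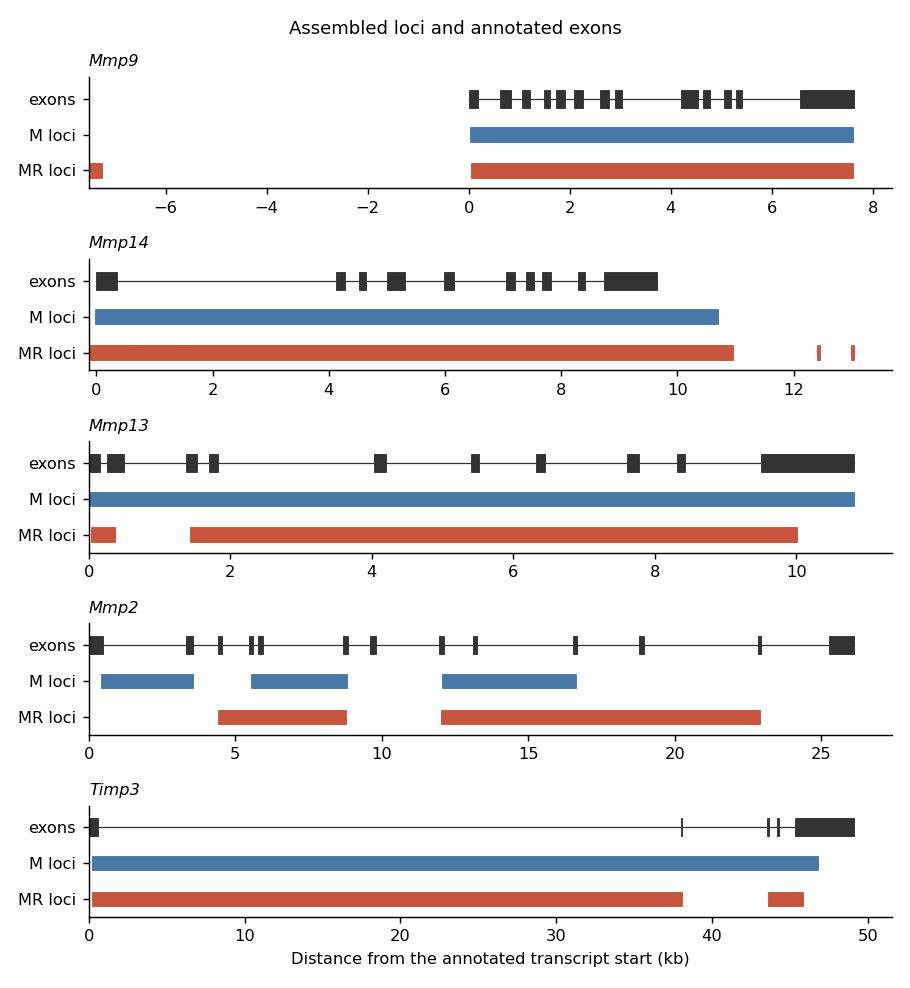
Assembled loci in M and in MR below the annotated exons of Mmp9, Mmp14, Mmp13, Mmp2 and Timp3, against the distance from the transcript start in kb. Mmp9 and Mmp14 have a locus across all exons in both libraries, Mmp13 only in M, and Mmp2 is in pieces in both, while Timp3 is in pieces in MR.

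None of the 3 inhibitors passed the threshold in either direction. Timp2, which blocks the enzymes and also helps Mmp14 to activate Mmp2, was the most abundant of the 10 genes in M with a TPM of 153, and had 135 in MR. Its log2 ratio was -0.18, with a counting interval from -0.26 to -0.10. The extent of its locus includes Cep295nl, a gene that lies within Timp2 on the same strand, so the value may hold reads of both. Timp1, the inhibitor that binds the precursor of Mmp9, reached 5.39 TPM in M against 3.96 in MR, from an estimated 23 and 12 read pairs, and its log2 ratio of -0.37 had an interval from -1.14 to 0.45. In M its locus began 107 bases and in MR 863 bases after the start of the transcript Timp1-202. Timp3, which is bound to the matrix, reached 2.43 TPM in M against 4.58 in MR. Its log2 ratio of 0.70 had an interval from -0.05 to 1.48. The value in M is from 1 locus and that in MR is the sum of 2 pieces, with an estimated 30 and 11 read pairs. These rest on 2229 bases of the transcript Timp3-201 in M, and on 470 and 725 in MR. The loci hold 5651 exon bases of the gene in M, and 3892 and 725 in MR. The estimates and the interval of Timp3 depend on this choice of length. With the longest piece alone in MR the log2 ratio of Timp3 was 0.19. With these estimates no difference in Timp1 or Timp3 was detectable at this depth. Timp3 and Syn3, on the other strand, share 1733 exon bases, and no locus was assembled for Syn3.

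The TPM of Mmp9 was 2.11 times that of Timp1 in M and 1304 times in MR. The latter is loosely fixed, because Timp1 in MR rests on an estimated 12 read pairs, with a counting interval of 2.04 to 6.91 TPM. The TPM of Mmp14 was 0.359 times that of Timp2 in M and 5.48 times in MR. In M the order by TPM was Timp2, Mmp14, Mmp8, Mmp19, Mmp13, Mmp12, Mmp9, Timp1, Mmp2 and Timp3. The counting intervals of Mmp14 and Mmp8, of Mmp13 and Mmp12, and of neighbours among the last 3 overlapped. In MR the order was Mmp9, Mmp14, Timp2, Mmp19, Mmp8, Timp3, Timp1, Mmp12, Mmp2 and Mmp13. The intervals of Mmp19 and Mmp8, and of neighbours among the last 5, overlapped, so their order is not settled by these reads. Mmp2 in both libraries, and Mmp13 and Timp3 in MR, stand in these orders with sums over pieces of the transcript. The values of Mmp19 in both libraries, and of Mmp9 and Mmp14 in MR, also hold small loci beside the main one.

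**Figure D5:**
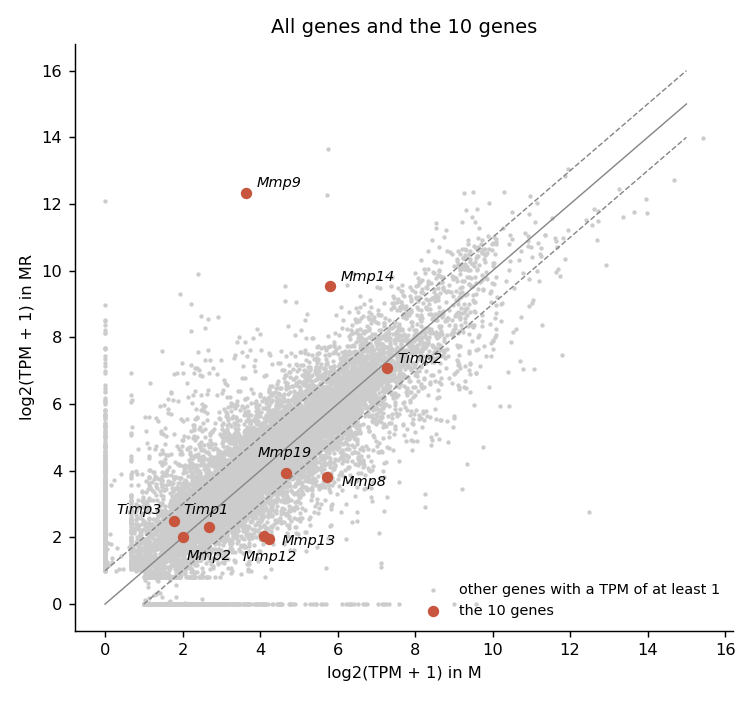
Log2(TPM + 1) in M against MR for genes that reached a TPM of 1 in either library (small points) and for the 10 genes (large points). The solid line marks equal values and the dashed lines log2 ratios of -1 and 1. Mmp9 lies far above the upper dashed line, and the Timp genes lie between the dashed lines.

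The rest of the families was little expressed, except for Mmp27 in M. At 73.4 TPM it was there above every Mmp gene among the members, and it is not part of the Mmp sums given above. Of 18 other genes, which are the remaining Mmp genes, Timp4 and Reck, a membrane-bound inhibitor, 11 were at 0 in both libraries and 7 reached a TPM of 1, of which 0 were called higher and 4 lower, beside 21.2% and 13.3% of all genes. Apart from Mmp27, none reached a TPM of 10, and the lower calls of Mmp17, Mmp23 and Reck rest on a TPM of 1.57 to 2.53 in M and no locus in MR.

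Of 20 genes that activate, dock or clear metalloproteinases, 15 reached a TPM of 1, and 4 of them were called higher and 2 lower. These counts are close to the 21.2% and 13.3% of all genes. The integrin subunits Itgb3 and Itgav, which together form the vitronectin receptor of osteoclasts, reached 5.56 TPM in M against 158 in MR for Itgb3 and 34.5 against 185 for Itgav. Itgb3 is also among the osteoclast markers. Serpine2, an inhibitor of serine proteases, had 2.13 and 16.4. The other gene called higher, Plat, had no locus in M and 1.59 TPM in MR. Thbs1, thrombospondin 1, had 76.6 in M and 20.1 in MR, and the other gene called lower was Plau, the urokinase that starts the plasmin cascade, with 712 and 238. Furin, which cleaves the Mmp14 precursor, and Cd44, a docking site of Mmp9, were not called, with TPM of 38.8 in M and 63.1 in MR for Furin and of 149 and 160 for Cd44. Plat, Plau, Furin and Cd44 were named after their values were seen.

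Of 15 genes of matrix and other secreted substrates, 13 reached a TPM of 1, with 2 called higher, 0 lower and a median log2 ratio of 0.54, beside 21.2%, 13.3% and a median of 0.21 for all genes. Col3a1, a fibrillar collagen, reached 4.48 TPM in M against 14.1 in MR, Fn1, fibronectin, 6.79 and 14.5, Col4a1, of basement membranes, 6.85 and 12.1, and Lamc1, a laminin chain, 15.3 and 24.0. Of these 4 only Col3a1 passed the threshold, and the other gene called higher, Dcn, had no locus in M and 1.04 in MR. Col3a1 and Dcn are also among the stromal markers. Fn1 and Col6a1 lay just below the threshold, with log2 ratios of 0.995 and 0.997. Spp1, osteopontin, by far the most abundant gene of the list, was not called, with 2076 in M and 1369 in MR and a log2 ratio of -0.60, and the sum of the list was 2156 in M and 1491 in MR. Of 10 genes of the related ADAM and ADAMTS proteases, 8 reached a TPM of 1. Of these, 2 were called higher and 2 lower, beside 21.2% and 13.3% of all genes. Adam8 reached 986 TPM in M against 227 in MR, from a locus shared with a neighbouring gene, and Adam15 had 167 and 47.3. Adam17, the protease that sheds TNF, had 133 and 79.6, and Adam9 130 and 88.1, with log2 ratios of -0.73 and -0.56. The 2 called higher, Adamts4 and Adamts5, had no locus in M and a TPM of 7.29 and 1.51 in MR. Both were named after their values were seen, as were Spp1, Dcn, Col6a1, Cd68, Csf1r, Pdgfra, Lepr, Cxcl12, Elane, Lum, Mmp17, Mmp23 and Reck.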

How the data were processed

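RNA was sequenced by the authors as paired reads of 150 bases, trimmed with Trim Galore, mapped to mm10 (GRCm38) with HISAT2, and quantified by StringTie on GENCODE vM27. Versions are not given in the sources used here. The deposited tables hold, per locus, a coverage (the signal per base, not scaled for depth), an FPKM and a TPM score, which the authors' tool scaled so that the assembled loci sum to 1000000. The vM27 positions are on GRCm39, so entries with gene names were not used. Instead, every assembled locus went to the GENCODE vM21 gene on its strand that shares most exon bases with it (minimum 50), with strandless loci accepted on both strands, and TPM was summed per gene. This placed 15665 M loci (95.4% of TPM) and 16523 MR loci (96.9%). Where another coding gene had 50% or more of its exon bases inside, the locus counted as shared and entered gene lists but not the background, and genes nested in a foreign locus got no value. Read pairs were taken as 300 bases. Intervals of ratios are Wilson intervals and those of levels exact Poisson intervals. The assignment was tested on simulated loci that each spanned nearly a whole gene, so genes assembled in pieces were not covered by this test.

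With 1 library per group no test was run. The genes and lists were chosen with earlier results of these data known. The naming rule for each list was the 4 genes with the largest absolute log2 ratio among those that reached a TPM of 10. Of the neutrophil and stromal markers, not all genes that the rule picks were named. Alternatives were a pseudocount of 0.1, no TPM filter or one of 10, a log2 threshold of 2, FPKM, coverage per aligned Gb, 2 other scalings, the longest locus alone, stranded loci alone, and shared loci in the background. The software was Python 3.11.15, with matplotlib 3.10.9, scipy 1.17.1, pandas 2.3.3 and numpy 2.4.6.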

Additional observations from a re-analysis of the deposited data

How the results depend on the processing

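Of 184 values recomputed under alternatives, 169 stayed within the limits set (the counting interval of a gene, the order-statistic interval of a list's median, 0.1 for the median of all genes, 1.5 times a count), 15 moved, and no called value changed its sign. Of values not called, Mmp2 turned negative under 4 alternatives, down to -0.14, and the median of the activation, docking and clearance list was -0.09 in place of 0.10 under median-of-ratios scaling. The 5 genes called were called in the same direction under every unit, scaling and pseudocount run, while a log2 threshold of 2 left out Mmp8. The log2 ratio of Mmp9 was 8.52 in FPKM and 8.49 in coverage per aligned Gb, and that of Mmp12 was -1.65 in the latter. Median-of-ratios scaling gave 3.53 for Mmp14, -0.37 for Timp2 and a median of all genes of 0.0283, a shift of -0.19 of every gene before 1 is added, with 2432 genes higher and 2157 lower. Without mitochondrial and the 20 most abundant genes Timp2 was at -0.29. With the longest locus alone Mmp13 was at -2.94, Mmp2 at 0.82 and Timp3 at 0.19. With a pseudocount of 0.1 the median of the other family genes was -3.38 in place of -1.36, over 7 genes of which 3 have no locus in MR. The 2860 genes higher and 1784 lower became 958 and 521 at a log2 threshold of 2, 1601 and 983 under a TPM filter of 10, and 1795 and 1102 among genes with a locus in both libraries, a setting chosen after the data were seen, and each admits fewer genes by construction. No paired analysis was possible because each group has 1 library, so that no replicate could be left out either. Depth limits Mmp2, Timp1, Timp3 and, in MR, Mmp13, each with few estimated read pairs (5 to 30). For Timp3 these estimates depend on the length taken.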

Other observations

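In MR, a locus given to Mmp9 lay upstream of the main transcript Mmp9-201, at chr2:164940698-164940967, with a TPM of 7.22 and a coverage of 9.57. It shares 188 exon bases with another annotated Mmp9 transcript and 0 with Mmp9-201, and no such locus was assembled in M. The loci across the main transcript began 29 bases after its start in M and 37 bases after it in MR, and both covered its 13 exons. The Mmp12 locus began at the transcript start in M and at -1213 from it in MR, and ended at the same base in both.

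Within the extent of Mmp14, 2 loci of under 100 bases were assembled in M and 9 in MR. All of them had the ends of a T cell receptor joining segment (Traj) in the annotation used by the authors, which is positioned on the other genome build. Of those in MR, 4 were given to Mmp14, and the 5 others, with a TPM of up to 6.79, were given to no gene.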
